A study of Homo sapiens with 16 samples.

Results

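The NCTAD form of HIF-2α was compared with the full-length protein (FL) in 8 of the 16 RNA-seq libraries of a study in SK-N-BE(2), a MYCN-amplified human neuroblastoma line. Cells in 4 of these libraries had been transfected with the full-length protein, and cells in the other 4 with the form that the sample labels call NCTAD and the design text writes ΔN-CTAD. They were chosen by their labelled genotype alone, and the question put to them was what the change of construct altered across all expressed genes. The other 8 libraries, 4 of wild-type cells (WT) and 4 of cells given the form labelled cIDR (Δc-IDR in the design text), entered the model to estimate the spread. All cells were cultured in DMEM with 10% serum at 21% oxygen and 5% CO2. The labels describe stranded libraries of poly(A) RNA, with 250 ng as input and amplification over 13 PCR cycles. The residues concerned, the vector, its promoter, the time after transfection and whether a group is 1 culture or several are not given in the sources used here. WT libraries held reads of endogenous EPAS1, the gene of HIF-2α. In the transfected groups, endogenous reads are counted together with those of the construct. Each replicate number, 1 to 4, is also labelled as a batch, so that FL and NCTAD replicates of 1 number share a batch. Nothing in the labels says that replicates are separate cultures, so p-values measure the spread between these libraries, part of which may be technical.

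HIF-2α is an oxygen-labile transcription factor. It pairs with ARNT and binds short hypoxia response elements with the core ACGTG or GCGTG. In oxygen, prolyl hydroxylases of the EGLN family mark the protein for ubiquitination by VHL, and the asparaginyl hydroxylase HIF1AN blocks the C-terminal transactivation domain from recruiting the coactivators EP300 and CREBBP. HIF-α proteins also have an N-terminal transactivation domain, which lies within the oxygen-dependent degradation domain. EPAS1 is expressed in the developing sympathetic lineage from which neuroblastoma arises, and known targets of the factor include angiogenic, metabolic and catecholamine genes.

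No gene passed the threshold between NCTAD and FL by edgeR. Of 19530 genes tested, 0 (0%) had an edgeR adjusted p under 0.05, with the batch in the model as a replicate block or without it. DESeq2 called 2 genes without the block and 12 with it, 6 of these 12 higher in NCTAD. The precision bounded most expressed genes. Of 12929 genes with a mean log2 CPM (counts per 1 M counts) of at least 1, 12494 (96.6%) had a 95% interval of the NCTAD minus FL log2 fold change within ±1, and 12824 (99.2%) with the block. VEGFA, IGF2, CRH, AQP10 and SFXN3 were among the higher genes with the smallest blocked p, a choice that required NCTAD above FL in 4 of 4 batches. Their blocked log2 fold changes, from the same values that ranked them, were 0.41 to 0.84. Among 88 genes that were higher with cIDR than in WT, a choice that used neither FL nor NCTAD in its contrast, 73 (83.0%) had a higher fitted value in NCTAD than in FL with the block, against 52.6% of all genes. Within batch 2, 29 of them were higher (median −0.070), and without the block 65 were, or 21 when NCTAD replicate 2 was left out. EPAS1 itself was lower in NCTAD in batch 2 alone, and its part in these differences was not tested. CERS1 had the smallest adjusted p of all genes, 0.126 with the block by edgeR, and was lower in NCTAD.

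Sequences from the RefSeq promoter table (GRCh38.p14) are shown for 4 genes that the results turn on. They are AQP10 and SFXN3, among the higher genes with the smallest p, FLT1, a HIF-2-associated gene without overlap between the groups, and CERS1. Of the 6 higher genes with the smallest p, the table matched AQP10 and SFXN3 and not VEGFA, IGF2, CRH or MGP. Each sequence runs from 250 bases before to 50 after an annotated start, 5′ to 3′ on the strand of the gene, with ACGTG or GCGTG on either strand in capitals (on the other strand they read CACGT and CACGC).
AQP10, chr1:154320843-154321142, plus strand: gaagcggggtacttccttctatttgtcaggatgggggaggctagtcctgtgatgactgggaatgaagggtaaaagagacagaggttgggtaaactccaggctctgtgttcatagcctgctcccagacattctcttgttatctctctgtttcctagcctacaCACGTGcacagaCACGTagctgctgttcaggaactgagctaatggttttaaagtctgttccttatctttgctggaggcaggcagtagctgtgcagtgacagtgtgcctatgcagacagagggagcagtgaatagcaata
SFXN3, chr10:101030984-101031283, plus strand: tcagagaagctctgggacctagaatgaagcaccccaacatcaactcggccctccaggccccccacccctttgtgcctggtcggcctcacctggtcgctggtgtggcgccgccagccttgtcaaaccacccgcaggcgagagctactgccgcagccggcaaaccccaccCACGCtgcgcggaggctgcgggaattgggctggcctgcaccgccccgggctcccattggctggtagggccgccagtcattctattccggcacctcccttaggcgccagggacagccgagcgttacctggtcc
FLT1, chr13:28495079-28495378, minus strand: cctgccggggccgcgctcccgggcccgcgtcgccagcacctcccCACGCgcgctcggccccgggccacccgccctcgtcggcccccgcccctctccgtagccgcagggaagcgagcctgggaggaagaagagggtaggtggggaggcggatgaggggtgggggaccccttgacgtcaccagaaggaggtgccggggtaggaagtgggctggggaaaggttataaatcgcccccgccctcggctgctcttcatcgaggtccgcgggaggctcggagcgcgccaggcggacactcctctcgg
CERS1, chr19:18896109-18896408, minus strand, 1 of 2 starts in the table: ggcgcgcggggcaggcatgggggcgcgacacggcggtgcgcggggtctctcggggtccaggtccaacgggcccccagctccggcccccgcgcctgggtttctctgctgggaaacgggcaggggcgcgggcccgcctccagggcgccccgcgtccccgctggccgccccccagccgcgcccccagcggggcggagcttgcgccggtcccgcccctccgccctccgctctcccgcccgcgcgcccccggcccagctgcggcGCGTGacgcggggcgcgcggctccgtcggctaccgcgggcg

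The AQP10 promoter held 3 matches, some of them overlapping, and the SFXN3, FLT1 and CERS1 promoters held 1 match each. Such short motifs are common: 48.4% of the 35116 promoters in the table held 1 or more. Counted by gene, with any start of the gene allowed, the share was 69.4% of the 11847 tested genes that the table matched. It was 74.6% for the genes higher with cIDR than in WT (44 of 59 matched). Of the hypoxia-induced genes listed below, 24 of 27 matched genes (88.9%) held a match. A match is a description of the sequence and shows no binding.

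The 8 libraries held 43.0 to 56.1 M (mega) estimated counts, within the 38.6 to 56.1 M of all 16. FL totals were 43.0, 49.5, 46.5 and 49.0 M in batches 1 to 4, and NCTAD totals were 46.4, 47.8, 56.1 and 47.6 M. All 9 adrenergic neuroblastoma markers were detected, with a summed level of 4674 to 5377 CPM in FL and 4672 to 5724 CPM in NCTAD. Most of each sum was MYCN, at 2661 to 3173 CPM in FL and 2613 to 3362 CPM in NCTAD. TH was the lowest, at 1.71 to 9.36 CPM in FL and 2.53 to 10.2 CPM in NCTAD. Of 12 markers of other cell types, 8 stayed under 1 CPM in all 8 libraries, among them PTPRC and PECAM1. KRT19, COL1A1, DCN and GFAP did not. DCN read 8.86 to 17.5 CPM in FL and 8.39 to 17.2 CPM in NCTAD, and KRT19 7.66 to 10.4 and 6.56 to 8.87 CPM. COL1A1 read 1.93 to 6.44 CPM in FL and 2.33 to 5.77 CPM in NCTAD, and GFAP 2.53 to 4.29 and 1.86 to 3.82 CPM. The 12 summed to 23.6 to 37.0 CPM in FL and 20.4 to 35.03 CPM in NCTAD.

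Batch set most of the variation among the 8 libraries. Over the 12929 genes it accounted for a median of 80.9% of a gene's variance in log2 CPM, and construct for 2.22%. Component 1 held 51.0% of the variance, with 99.4% of its scores explained by batch and 0.343% by construct, and set both libraries of batch 2 (scores 37.6 and 38.9) apart from the other 6 (−18.0 to −10.8). FL replicate 1 lay alone on component 2, at −37.4 against −6.27 to 14.7 for the rest. Component 4, with 5.94% of the variance, had more of its scores explained by construct (42.3%) than by batch (18.4%). FL replicate 4 held 2.55% of its counts in mitochondrially encoded genes, against 6.20% to 10.3% in the other 15 libraries. In bulk RNA, a lower level cannot be told apart from fewer cells with the transcript.

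EPAS1 (ENSG00000116016.14, chromosome 2, 46297407 to 46386697 in RefSeq GRCh38.p14) was read first, since it checks the labels and how far the constructs were matched. Its level was 1691, 2001, 3580 and 3164 CPM in FL replicates 1 to 4 and 2203, 1320, 4228 and 3655 CPM in NCTAD replicates 1 to 4. NCTAD was above FL in batches 1, 3 and 4 and below it in batch 2, and the groups overlapped. WT libraries had 18.2 ± 6.89 CPM (mean ± SD, n = 4), so that every transfected library lay far above them. The NCTAD minus FL log2 fold change was 0.13 ± 0.38 (SE; edgeR adjusted p 1), and a two-sided exact permutation test of log2 CPM over 70 arrangements gave p = 0.886, where 0.0286 is the smallest p possible. These arrangements exchanged libraries across batches and did not use the pairing. The sign turned without FL replicate 1 (−0.028), NCTAD replicate 3 (−0.126) or NCTAD replicate 4 (−0.015). In TPM, which divides by effective transcript length, NCTAD stood at 3959 ± 1894 and FL at 2551 ± 1006 (SD, n = 4 each), a mean log2 difference of 0.59 with exact permutation p = 0.314 by the same arrangements.

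The ratio of count to TPM of EPAS1 differed between the groups. It is proportional to the effective length that salmon used for EPAS1 in that library, and was divided by the median of the same ratio over genes. The ratio was 0.624 ± 0.012 in FL, 0.418 ± 0.012 in NCTAD, 0.522 ± 0.008 in cIDR and 1.94 ± 0.27 in WT (mean ± SD, n = 4 each), with no overlap between groups. By that measure the EPAS1 reads of NCTAD libraries were assigned to shorter transcripts than those of FL libraries in every replicate. The true length of the transfected transcripts is not given in the sources used here, so the CPM and the TPM difference of EPAS1 are both given.

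Blocked log2 fold changes of the listed HIF subunits, oxygen sensors and coactivators ranged from −0.30 to 0.34. HIF1A, the other main HIF-α subunit, was at 239, 383, 370 and 406 CPM in FL and 362, 374, 364 and 370 CPM in NCTAD. Only FL replicate 1 lay low, and without it the log2 fold change of 0.07 ± 0.12 became −0.069. ARNT, the obligate partner, was at 31.6, 43.0, 39.4 and 39.2 CPM in FL and 39.3, 44.9, 40.2 and 43.0 CPM in NCTAD, higher within all 4 batches with overlapping groups (0.13 ± 0.06 with the block, edgeR adjusted p 0.996). EGLN3, a prolyl hydroxylase and itself a HIF target, read 34.7, 73.7, 39.5 and 43.5 CPM in FL and 49.5, 64.3, 44.9 and 45.3 CPM in NCTAD, where batch 2 went the other way. Of the 15 subunits, sensors and coactivators listed, 10 had a higher and 5 a lower fitted value in NCTAD. The blocked median was 0.069, and 0.0052 with 8 higher when FL replicate 1 was left out. The blocked values were 0.07 ± 0.05 for HIF1AN, 0.09 ± 0.07 for VHL, 0.06 ± 0.10 for EGLN1 and −0.20 ± 0.14 for ARNT2. MYCN, the amplified oncogene of the line, differed by 0.01 ± 0.05 with the block.

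Across all genes the number of small p-values depended on whether the batch was modelled. Without the block 173 genes (0.886%) had an unadjusted p under 0.05, 76 higher and 97 lower in NCTAD, and the smallest adjusted p by edgeR rounded to 1. With the block 721 genes (3.69%) did, 390 higher (2.00%) and 331 lower (1.69%), and 168 genes were in both sets. With the block, the 721 became 1315 without FL replicate 4, 1186 without FL replicate 2 and 463 without NCTAD replicate 4. In NCTAD 1176 genes (6.02%) were above FL in 4 of 4 batches and 1028 (5.26%) below. Groups of 4 libraries did not overlap for 70 genes above (0.358%) and 68 below (0.348%). Calls appeared when libraries of batch 2 were left out. With the block, edgeR called 2 genes without FL replicate 2 (IGF2 and CRH) and 5 without NCTAD replicate 2 (IGF2, RGMA, VEGFA, SFXN3 and C2CD4A). Without batch 2 altogether it called 5, which were CRH, IGF2, RGMA, AQP10 and VEGFA, all higher in NCTAD. DESeq2 called 2 genes without the batch term and 12 with it. Those 12 were VEGFA, AQP10, SFXN3, MGP, CRH and STC1 higher in NCTAD, and CERS1, SULT1A3 and 4 genes with no reads in any NCTAD library lower. These 4 were ENSG00000293097, ENSG00000278996, GCSHP3 and RPS27AP16, and each had reads in at most 3 FL libraries.

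**Figure D1:**
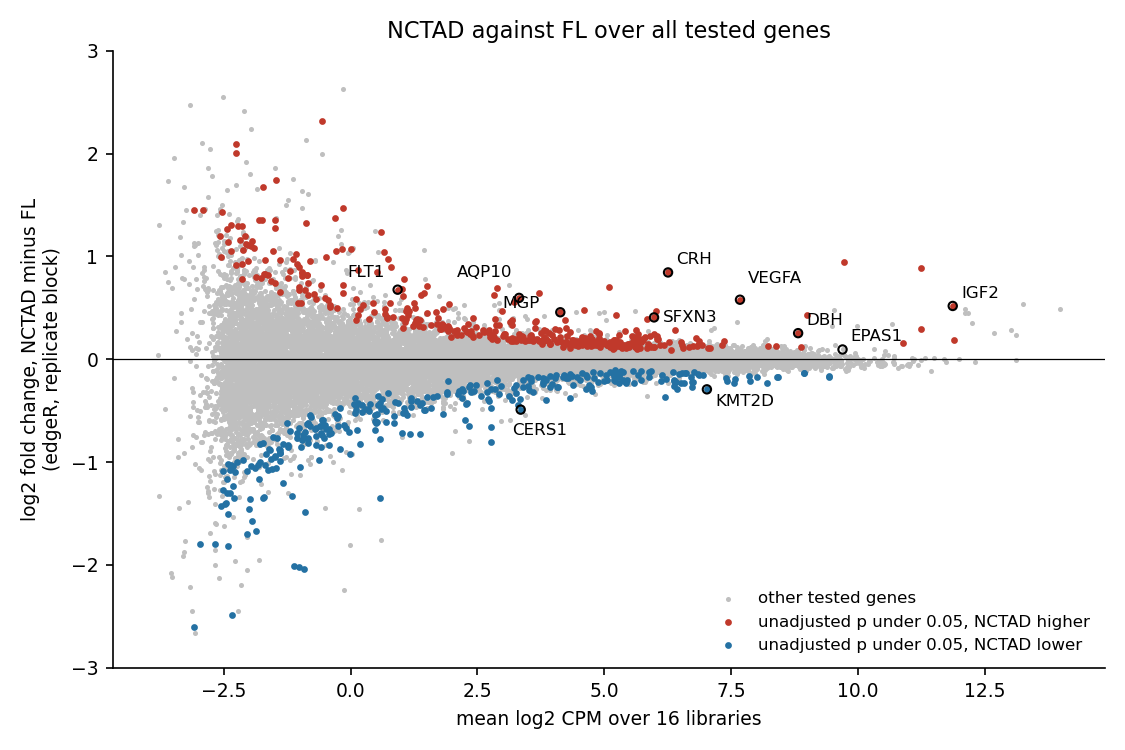
Each point is 1 of the 19530 tested genes, with the mean log2 CPM over 16 libraries on the x axis and the NCTAD minus FL log2 fold change with the replicate block on the y axis. Red and blue mark the 390 and 331 genes with an unadjusted p under 0.05, black rings mark named genes, and 23 genes lie outside the axis of ±3; spread widens at low expression and most expressed genes lie near 0.

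The per-batch differences did not repeat from batch to batch over all genes. For the 12929 genes, the correlation of the NCTAD minus FL difference between 2 batches, which share no library, ranged from −0.198 (batches 1 and 4) to 0.221 (batches 3 and 4) over 6 pairs, with a mean of −0.0321. These correlations are across genes, which are not independent. At that expression level the 95% interval of a log2 fold change reached a median of 0.28 to either side without the block and 0.16 with it, against a median absolute difference of 0.053.

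VEGFA (ENSG00000112715.26, chromosome 6) encodes the angiogenic growth factor that is a classic HIF target. Its level was 138, 479, 157 and 113 CPM in FL and 204, 495, 258 and 227 CPM in NCTAD. NCTAD was the higher library in each batch, but both libraries of batch 2 stood far above the other 6, so the groups overlapped. The differences were 0.56, 0.05, 0.72 and 1.00 on the log2 scale in batches 1 to 4. The log2 fold change was 0.42 ± 0.51 without and 0.58 ± 0.11 with the block (edgeR adjusted p 1 and 0.489), and 0.77 without batch 2 (adjusted p 0.0451 by edgeR). Without the block it ranged from 0.049 without NCTAD replicate 2 to 1.12 without FL replicate 2.

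IGF2 (ENSG00000167244.22, chromosome 11), an imprinted growth factor gene, read 2931, 8917, 2408 and 2135 CPM in FL and 4661, 9250, 3628 and 3592 CPM in NCTAD. Batch 2 was again high in both groups and had the smallest difference, 0.05, against 0.67, 0.59 and 0.75 in batches 1, 3 and 4. The blocked log2 fold change was 0.52 ± 0.09 (edgeR adjusted p 0.284), and 0.68 without batch 2 (edgeR adjusted p 0.00691). Without the block it was 0.37 ± 0.55 and turned to −0.048 when NCTAD replicate 2 was left out. A read-through transcript with INS spans this locus, and how its reads were divided is not known.

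CRH (ENSG00000147571.5), which encodes corticotropin-releasing hormone, had the largest blocked value of these genes. It read 55.1, 143, 45.2 and 50.5 CPM in FL and 142, 176, 95 and 84.2 CPM in NCTAD, higher in every batch with overlap through batch 2. Its blocked log2 fold change was 0.84 ± 0.16 (edgeR adjusted p 0.402), and 1.07 without batch 2 (edgeR adjusted p 0.00691). AQP10 (ENSG00000143595.13, chromosome 1), an aquaglyceroporin whose promoter is printed above, read 10.2, 10.6, 7.05 and 7.47 CPM in FL and 20.4, 11.7, 11.04 and 11.2 CPM in NCTAD. Here all 4 NCTAD libraries lay above all 4 FL libraries, and NCTAD replicate 1 lay far above the other 3. The blocked value was 0.60 ± 0.11 (edgeR adjusted p 0.402). With 1 library or batch left out, in fits with and without the block, AQP10 ranged from 0.36 to 0.76.

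SFXN3 (ENSG00000107819.15, chromosome 10) encodes a mitochondrial serine transporter. It was at 41.1, 116, 46.3 and 43.3 CPM in FL and 62.9, 119, 64.1 and 61.6 CPM in NCTAD, with a blocked value of 0.41 ± 0.08 (edgeR adjusted p 0.720). Without the block the value was 0.32, and it ranged from 0.028 without NCTAD replicate 2 to 0.82 without FL replicate 2. MGP (ENSG00000111341.10, chromosome 12), an inhibitor of calcification, read 12.1, 18.6, 15.4 and 17.3 CPM in FL and 20.05, 23.4, 21.99 and 20.7 CPM in NCTAD without overlap (0.46 ± 0.10, edgeR adjusted p 0.733). Of these 6 higher genes, MGP alone had no difference between cIDR and WT (edgeR adjusted p 0.999 with the block). RFFL, an E3 ubiquitin ligase gene, differed by a like amount in each batch, with 12.5, 13.2, 13.1 and 13.3 CPM in FL against 14.5, 14.8, 15.02 and 14.95 CPM in NCTAD, or 0.21, 0.17, 0.19 and 0.17 on the log2 scale by batch.

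**Figure D2:**
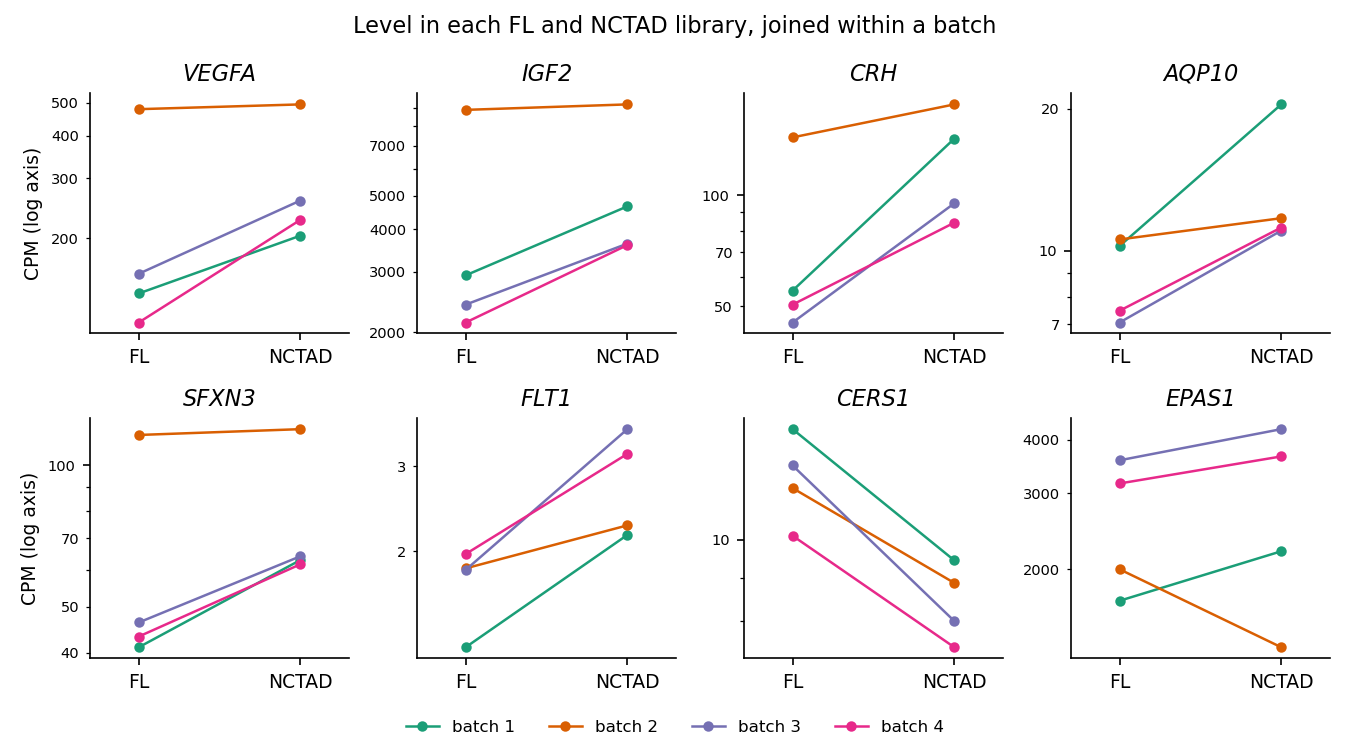
Level of 8 genes in CPM on a log axis in FL and NCTAD, with lines joining the 2 libraries of a batch. VEGFA, IGF2, CRH and SFXN3 are high in both libraries of batch 2 and higher in NCTAD in every batch, CERS1 is lower in every batch, and EPAS1 is lower in NCTAD in batch 2 alone.

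CERS1 (ENSG00000223802.9, chromosome 19, 18868545 to 18896982), a ceramide synthase of neurons, was at 13.6, 11.5, 12.3 and 10.1 CPM in FL and 9.45, 8.88, 7.9995 and 7.44 CPM in NCTAD. Every NCTAD library lay below every FL library. The log2 fold change was −0.49 ± 0.14 without and −0.49 ± 0.07 with the block (edgeR adjusted p 1 and 0.126). CERS1 and GDF1 share a bicistronic transcript, so their reads can be split either way. GDF1 was at 1.41, 1.66, 0 and 3.33 CPM in FL and 4.69, 3.47, 1.43 and 2.90 CPM in NCTAD. Summed over both genes, the differences shrank to −0.082, −0.095, −0.381 and −0.378 on the log2 scale in batches 1 to 4 (mean −0.23 ± 0.17 SD, n = 4).

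Of the other lower genes with the smallest blocked p, KMT2D, a histone methyltransferase gene, read 180, 128, 145 and 148 CPM in FL and 123, 111, 127 and 128 CPM in NCTAD, without overlap, though the highest NCTAD and lowest FL libraries both rounded to 128 (−0.29 ± 0.08). HERC2, a large ubiquitin ligase gene, differed by −0.27 ± 0.07, and GLRX, the glutaredoxin gene, by −0.27 ± 0.07. TMEM120A differed by −0.22 ± 0.06 and the long noncoding RNA LINC01963 by −0.39 ± 0.10. The edgeR adjusted p with the block was 0.996 for each of these 5. SLX1A-SULT1A3 (0.65 ± 0.21) and RPL21P16 (−0.29 ± 0.10) did not overlap between groups, but both share sequence with other genes. SULT1A3 itself was lower in 4 of 4 batches (−1.35 ± 0.31). The sum of SULT1A3 and SLX1A-SULT1A3 differed by −0.22, 0.29, 0.57 and 1.14 in batches 1 to 4. How reads were divided between these genes was not tested.

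**Figure D3:**
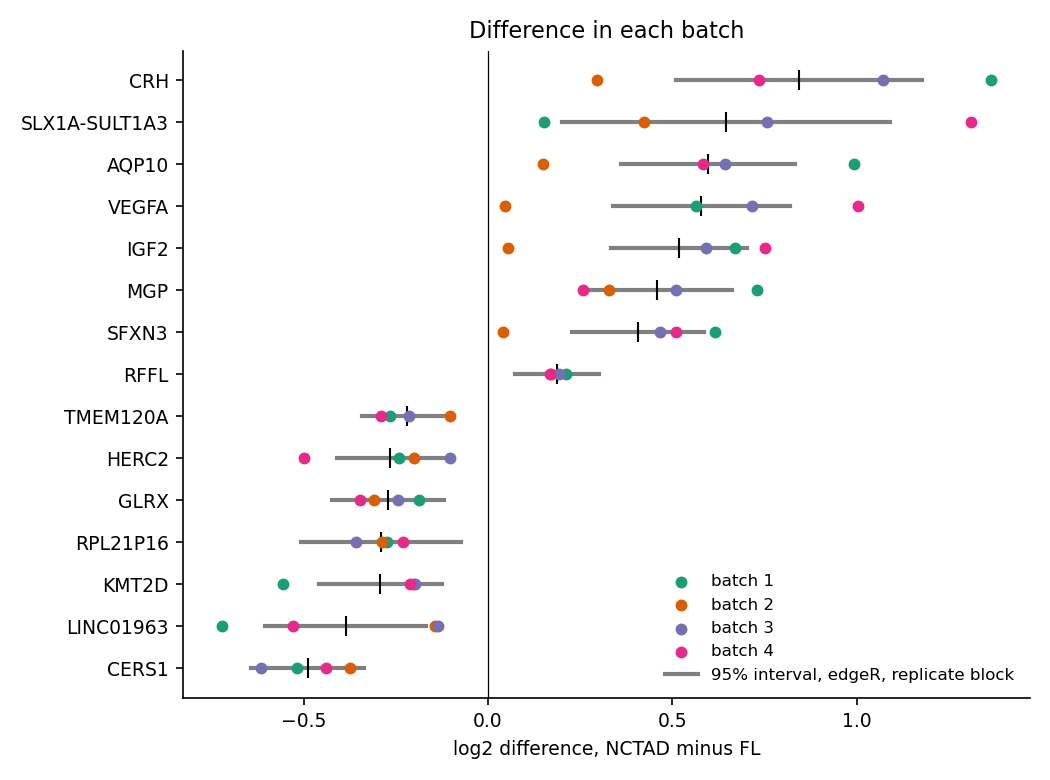
For the genes with the smallest p in either direction, points give the log2 difference of NCTAD minus FL in each batch and bars the 95% interval of the edgeR fit with the replicate block. Batch 2 lies nearest to 0 for VEGFA, IGF2, SFXN3, AQP10 and CRH.

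The gene lists asked whether the known outputs of HIF-2α moved as groups. They were written with earlier results of these data known, so the shares below are descriptions and not tests. Of 34 hypoxia-induced HIF targets, 30 had a higher fitted value in NCTAD with the block and 4 a lower one, against 52.6% higher over all genes tested. Members with an unadjusted p under 0.05 with the block numbered 5, all higher (14.7%, against 2.00% of all genes), and 10 were higher in 4 of 4 batches (29.4%, against 6.02%). In 4 of 4 batches 1 member was lower, against 5.26% of all genes. By edgeR on all libraries none passed the adjusted threshold, while VEGFA did by DESeq2 with the block. The median blocked difference was 0.11, against 0.0069 over all genes, and was 0.21, 0.013, 0.11 and 0.080 in batches 1 to 4. With the block and each library or batch left out, 27 to 31 members had a higher fitted value, and 26 did without FL replicates 1 and 4 (median 0.077). On log2(TPM + 1), 22 were higher with a median of 0.050. Without the block 27 were higher, and the median of 0.10 was negative when FL replicate 1 (−0.036), FL replicate 3 (−0.031), FL replicate 4 (−0.017) or NCTAD replicate 2 (−0.25, with 6 members higher) was left out, and 0.59 without FL replicate 2. Besides VEGFA the 5 were ZNF395 (0.25 ± 0.08), the secreted glycoprotein gene STC2 (0.17 ± 0.06), the adenylate kinase gene AK4 (0.56 ± 0.21) and the histone demethylase gene KDM3A (0.12 ± 0.05). ZNF395, a transcription factor gene, read 48.8, 121, 50.7 and 50.7 CPM in FL and 65.3, 127, 59.3 and 61.5 CPM in NCTAD. AK4 read 4.03, 32.0, 3.87 and 4.58 CPM in FL and 7.04, 30.7, 7.60 and 7.62 CPM in NCTAD, higher in batches 1, 3 and 4 and level in batch 2. CA9, the carbonic anhydrase used as a hypoxia marker, was under 1 CPM in all 8 libraries and differed by −0.07 ± 0.42.

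Of 20 glycolytic and lactate export genes, 9 were higher and 11 lower, with a blocked median of −0.0085, and 1 had an unadjusted p under 0.05 with the block (5%, against 2.00% of all genes higher). That gene was SLC2A1, the main glucose transporter, at 61.9, 102, 87.3 and 92.1 CPM in FL and 102, 82.4, 115 and 116 CPM in NCTAD. Its difference was 0.72, −0.31, 0.39 and 0.33 in batches 1 to 4 (0.29 ± 0.13 with the block, edgeR adjusted p 0.996). With 1 library or batch left out, in fits with and without the block, it ranged from 0.15 to 0.49. PFKL, a phosphofructokinase gene, differed by 0.14 ± 0.07. The blocked intervals of the most expressed members were narrow, with −0.02 ± 0.06 for GAPDH, 0.01 ± 0.05 for PKM and −0.05 ± 0.06 for ENO1.

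HIF-2-associated targets split evenly, 6 higher and 6 lower among the 12 tested of 19 listed, with a blocked median of 0.014. Blocked values ranged from −0.84 to 0.68, so the largest in size was that of a lower gene. An unadjusted p under 0.05 with the block was reached by 3 (25%, against 2.00% of all genes), all higher. FLT1, a VEGF receptor gene (promoter above), read 1.26, 1.84, 1.83 and 1.97 CPM in FL and 2.16, 2.26, 3.58 and 3.18 CPM in NCTAD without overlap (0.68 ± 0.22 with the block, edgeR adjusted p 0.996). Over 31 alternative fits the FLT1 value ranged from 0.12 to 0.85, and from 0.55 to 0.85 with 1 library or batch left out. LOXL2, a collagen crosslinking enzyme gene, read 0.971, 9.50, 0.903 and 0.777 CPM in FL and 1.81, 8.32, 1.79 and 2.02 CPM in NCTAD. It was higher in NCTAD outside batch 2 and lower within it (0.68 ± 0.22 with and 0.19 ± 0.96 without the block). CXCR4, a chemokine receptor gene, read 3.15, 8.13, 2.34 and 2.27 CPM in FL and 7.92, 6.44, 4.33 and 4.80 CPM in NCTAD, with batch 2 again opposite (0.64 ± 0.30). CCND1, the cyclin D1 gene, and TFRC, the transferrin receptor gene, differed by −0.01 ± 0.06 and 0.04 ± 0.09.

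In the adrenergic list, 3 enzymes of catecholamine synthesis had the smallest p. DBH, which converts dopamine to noradrenaline, read 404, 701, 360 and 390 CPM in FL and 520, 725, 456 and 471 CPM in NCTAD, higher in every batch (0.25 ± 0.07 with the block, edgeR adjusted p 0.996). Without the block DBH differed by 0.23 ± 0.24. With 1 library or batch left out, in fits with and without the block, it ranged from 0.057 to 0.49. DDC, the decarboxylase that makes dopamine, read 319, 368, 315 and 347 CPM in FL and 362, 393, 356 and 366 CPM in NCTAD (0.13 ± 0.05). TH, the first enzyme of the pathway, read 1.92, 9.36, 2.21 and 1.71 CPM in FL and 3.60, 10.2, 2.53 and 2.62 CPM in NCTAD (0.45 ± 0.17). All 3 were higher in 4 of 4 batches and had an unadjusted p under 0.05 with the block, as the only members of the 19 with such a p (15.8%, against 2.00% of all genes higher). Of the 19, 4 were higher in 4 of 4 batches (21.1%, against 6.02% of all genes) and 2 were lower in 4 of 4 (against 5.26%). GATA3 (−0.07 ± 0.06) and HAND2 (0.02 ± 0.06), regulators of sympathetic identity, had intervals that included 0. The list as a whole had 12 higher and 7 lower, with a median of 0.012. Mesenchymal genes were 6 higher and 8 lower of 14, with 0 at an unadjusted p under 0.05 by edgeR with the block.

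By edgeR, 0 members of the remaining programmes had an adjusted p under 0.05. Amino acid and ER stress genes were 15 higher and 4 lower of 19, with a median of 0.084, and SESN2 (0.21 ± 0.06) and TRIB3 (0.25 ± 0.09) had the smallest p. TRIB3, a pseudokinase gene of that response, read 18.0, 80.8, 20.01 and 20.9 CPM in FL and 22.9, 120, 19.5 and 21.5 CPM in NCTAD, so its difference lay in batches 1 and 2. Immediate early genes had 14 of 14 fitted values above 0 with the block, the lowest at 5.6e-05, with a median of 0.062 and 0 at an unadjusted p under 0.05 by edgeR. The number above 0 was 11 without FL replicate 1 (with the block), and 9 on log2(TPM + 1), where the median was 0.0070. Their batch medians were 0.19, −0.11, 0.18 and 0.094. Proliferation genes were 12 higher and 7 lower of 19 with a median of 0.013, and MKI67 differed by −0.14 ± 0.08. Interferon and nucleic acid sensing genes were 8 higher and 5 lower of 13, led by IRF1 (0.39 ± 0.16). Of the 6 tested markers of other cell types 2 were higher and 4 lower, and 3 (50%, against 3.69% of all genes) had an unadjusted p under 0.05 with the block. These were the endothelial cadherin gene CDH5 (1.203 ± 0.47), which stayed under 1 CPM in all 8 libraries, the epithelial keratin gene KRT19 (−0.26 ± 0.12) and the fibroblast proteoglycan gene DCN (−0.17 ± 0.08). Their part in the other results was not tested.

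Mitochondrially encoded genes had the largest median of the 12 lists, and it rested on FL replicate 4. All 13 had a higher fitted value in NCTAD, with a blocked median of 0.45. The batch medians were 0.17, −0.13, 0.24 and 2.24, so that batch 4 alone was far from 0. Without FL replicate 4 the blocked median was 0.055, with 8 of 13 higher. MT-CO1, a cytochrome oxidase subunit, read 14610, 15471, 19611 and 5442 CPM in FL and 18464, 14163, 23133 and 20862 CPM in NCTAD. MT-ND5, a subunit of complex I, read 1052, 2896, 2990 and 623 CPM in FL and 2889, 2640, 3866 and 3483 CPM in NCTAD, so that FL replicates 1 and 4 were both low. WT cells had 2404 ± 263 CPM of it (SD, n = 4).

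Genes that differed between cIDR and WT were chosen on libraries of other groups. With the block, edgeR called 89 genes higher (0.456%) and 6 lower (0.0307%) in cIDR than in WT. EPAS1 was one of the 89 and is left out below. The choice used the spread and batch terms of all 16 libraries, and the genes share batches with FL and NCTAD, so what follows is a description without a test. Of the 88 genes, 73 (83.0%) had a higher fitted value in NCTAD than in FL and 15 a lower one, against 52.6% higher of all genes and 55.9% of those at a mean log2 CPM of at least 1. An unadjusted p under 0.05 with the block was reached by 27 (30.7%), all higher, against 2.00% of all genes. In 4 of 4 batches 23 were higher (26.1%, against 6.02%) and 0 were lower, against 5.26% of all genes. The median difference was 0.15, against 0.0069 over all genes.

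Batch 2 went the other way for these 88 genes. The median difference was 0.36, −0.070, 0.24 and 0.24 in batches 1 to 4, with 73, 29, 79 and 73 genes higher in NCTAD. Leaving out FL replicate 1, the library apart on component 2, gave a blocked median of 0.14 with 72 higher, and leaving out FL replicates 1 and 4 together gave 0.096 with 70 higher. Without the block the median was 0.10, but it ranged from −0.15 without NCTAD replicate 2 (21 genes higher) to 0.70 without FL replicate 2. With batch 2 left out both of the choice and of the measurement, 43 genes were chosen, 40 of them among the 88. Of these 43, 41 were higher in NCTAD and 2 lower, with a median of 0.54, against 56.0% higher of all genes. In log2 CPM, EPAS1 itself differed by 0.38, −0.60, 0.24 and 0.21 in batches 1 to 4, also below 0 in batch 2 alone. Whether the level of EPAS1 has a part in the differences of these genes was not tested.

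**Figure D4:**
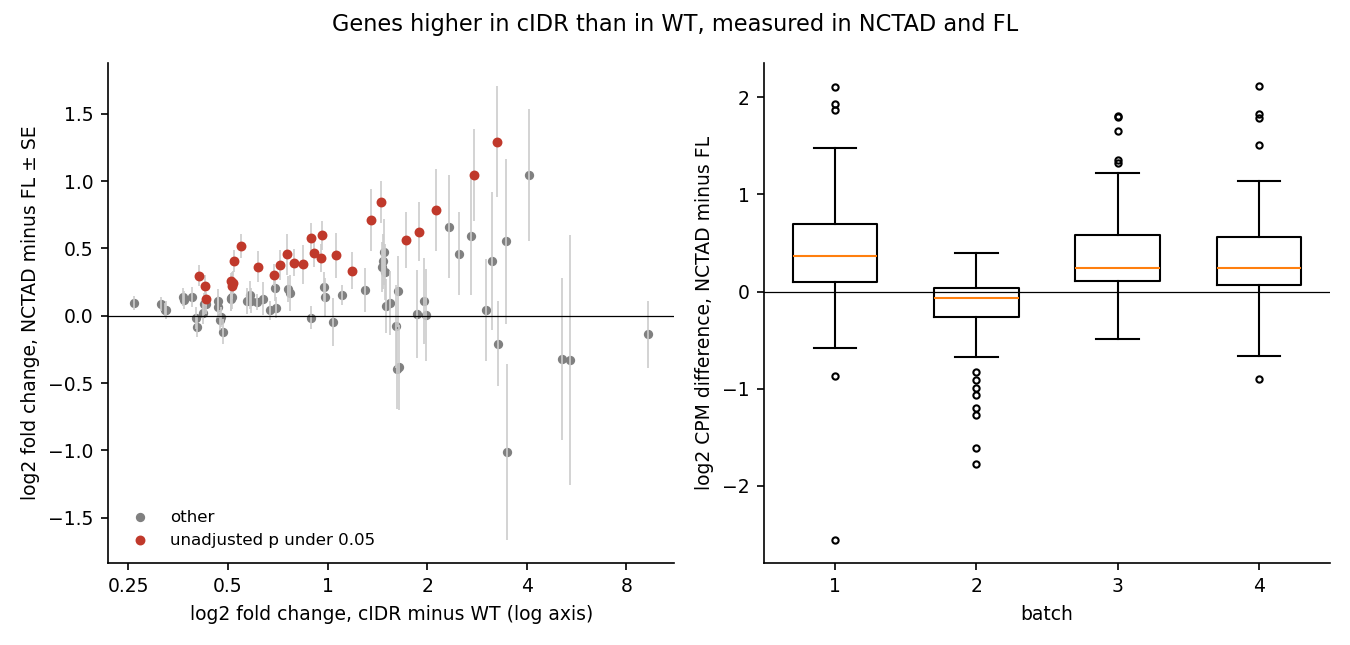
Left, the 88 genes higher in cIDR than in WT (x axis, log2 fold change on a log axis) at their NCTAD minus FL log2 fold change ± SE with the replicate block (y axis), with the 27 at an unadjusted p under 0.05 in red. Right, boxes give the median and quartiles of the same genes' NCTAD minus FL difference in each batch, whiskers reach at most 1.5 times the box and circles lie beyond; batch 2 alone has a median below 0.

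The 27 genes included IGF2, AQP10, CRH, VEGFA, SFXN3, DBH, TH, AK4, ZNF395 and KDM3A, given above. Others, chosen here after their values were seen, were STC1, a secreted glycoprotein gene (0.47 ± 0.11), RGS4, a regulator of G protein signalling (0.43 ± 0.10), and the imprinted genes RTL1 (0.39 ± 0.10) and DLK1 (0.30 ± 0.08). DLK1, an inhibitor of adipocyte differentiation that is also expressed in chromaffin cells, read 2474, 3963, 1664 and 1853 CPM in FL and 3724, 4102, 2091 and 2161 CPM in NCTAD. RGS4 read 378, 885, 393 and 426 CPM in FL and 706, 884, 539 and 543 CPM in NCTAD, level in batch 2 and higher in the other 3. COX4I2, a cytochrome oxidase subunit isoform induced by hypoxia, read 1.55, 5.27, 0.731 and 0.358 CPM in FL and 2.83, 6.12, 1.76 and 1.70 CPM in NCTAD (1.05 ± 0.34). Among genes with a symbol, and with EPAS1 left out, the 3 with the smallest p for cIDR against WT were BHLHE40, PFKP and TNIP1. ENSG00000287521, which has no symbol, ranked ahead of PFKP and TNIP1 and differed between NCTAD and FL by −0.14 ± 0.25. BHLHE40, PFKP and TNIP1 differed between NCTAD and FL by 0.15 ± 0.08, −0.01 ± 0.09 and 0.10 ± 0.06, while their cIDR minus WT values were 1.11 ± 0.08, 0.89 ± 0.08 and 0.61 ± 0.06. Of the 6 genes lower with cIDR, CERS1 and GLRX were lower in NCTAD than in FL in 4 of 4 batches, and the other 4 had higher fitted values.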

How the data were processed

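Libraries of SK-N-BE(2) cells were grouped by the genotype in the sample labels, 4 per group. The authors deposited estimated counts per gene made with salmon (per the table's name), not scaled to depth, and TPM values, scaled in each library to the same sum. The submitters' processing notes list fastp, STAR, Salmon, featureCounts and GRCh38 without versions or roles. Reads of endogenous and transfected EPAS1 are counted together.

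Counts, 15.5% of them not whole, were rounded. Of 63187 genes, 19530 passed filterByExpr by group. NCTAD was tested against FL by quasi-likelihood in edgeR 4.0.16 (R 4.3.3), with TMM normalization and 1 model over 16 libraries with group as the only term. The SE was taken as the size of the log2 fold change over the root of F, p-values were adjusted over all genes by Benjamini-Hochberg, and the threshold was 0.05. CPM use TMM-scaled sizes, and log2 CPM a prior count of 2. The biological coefficient of variation was 0.245, and 0.108 with the batch as a replicate block.

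The labels give the replicate number as a batch, so numbers pair the libraries. Deviations from group means correlated at 0.401 to 0.870 within a batch (mean 0.595) and −0.168 between batches. No library was a copy of another (chi-square per degree of freedom at least 7.50).

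Named genes were the 6 higher and 6 lower genes with the smallest blocked p and 1 sign in 4 of 4 batches, the 3 higher and 3 lower without overlap with the smallest unblocked p, EPAS1, HIF1A, ARNT, MYCN, 2 members per list, and the 3 genes with the smallest p of cIDR against WT (EPAS1 left out). The sets chosen by p over all genes took only genes with a symbol. The first 2 sets needed a mean log2 CPM of at least 1. The members and lists were chosen with earlier results of these data known. GENCODE 29 gave gene classes. Alternatives were median-of-ratios size factors, DESeq2 1.42.0, other filters, the 8 libraries alone, limma 3.58.1 on log2(TPM + 1) and log2(TPM + 0.1), the block, and libraries or batches left out. Leaving libraries out with the block, FL replicates 1 and 4 together, and choosing the cIDR genes without batch 2 were added after seeing the data. The tests were tried on simulated data first. A count of 0 allows up to 3 counts, or 0.0535 to 0.0778 CPM. Figures used matplotlib 3.10.9 in Python 3.11.15.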

Additional observations from a re-analysis of the deposited data

Results flagged for a closer look

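Within each group of 4 libraries, a library was set apart where its gap to the nearest other took up more of the group's whole range than Dixon's 95% limit allows. This was tried on 110 groups of values and met by 24, of which 13 were FL and 11 NCTAD, while chance gives about 1 in 20 for independent groups. These groups were not independent, since some lists hold named genes and FL and NCTAD libraries share batches. Replicate 2 was the library apart in 21 of the 24.

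In log2 CPM, replicate 2 lay above the rest of its group for these genes. SFXN3 was at 6.86 in FL against 5.36 to 5.54 in the other 3, and at 6.90 in NCTAD against 5.95 to 6.002 in the other 3. ZNF395 was at 6.92 in FL against 5.61 to 5.67 in the other 3, and at 6.98 in NCTAD against 5.89 to 6.03 in the other 3. LOXL2 was at 3.25 in FL against −0.29 to 0.02 in the other 3, and at 3.06 in NCTAD against 0.87 to 1.05 in the other 3. SESN2 was at 6.43 in FL against 3.97 to 4.36 in the other 3, and at 6.60 in NCTAD against 4.35 to 4.51 in the other 3. TRIB3 was at 6.34 in FL against 4.17 to 4.39 in the other 3, and at 6.91 in NCTAD against 4.29 to 4.52 in the other 3. PFKP was at 5.15 in FL against 3.08 to 3.23 in the other 3, and at 5.04 in NCTAD against 3.09 to 3.28 in the other 3. PFKL was at 5.90 in FL against 4.83 to 4.94 in the other 3, and BHLHE40 at 4.99 in FL against 3.97 to 4.11 in the other 3. For gene lists, the mean log2 CPM of replicate 2 was again the highest. It was 4.72 in FL against 3.16 to 3.26 in the other 3 for the hypoxia-induced HIF targets, and 4.73 in NCTAD against 3.42 to 3.46 in the other 3. For the adrenergic list it was 7.43 in FL against 7.13 to 7.18 in the other 3, and 7.40 in NCTAD against 7.21 to 7.24 in the other 3. Glycolysis and lactate export read 7.71 in FL against 6.84 to 6.95 in the other 3, and the HIF-2-associated targets 3.80 in FL against 3.27 to 3.36 in the other 3. Amino acid and ER stress read 7.28 in NCTAD against 6.42 to 6.44 in the other 3. The cause of the high values in batch 2 was not tested.

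The other 3 were single libraries. AQP10 in NCTAD replicate 1 was 4.36 against 3.47 to 3.56 in the other 3 on the log2 CPM scale. EGR3 in FL replicate 1 was −1.69 against −0.52 to −0.28 in the other 3. NCTAD replicate 3 was the deepest library, with 56.1 M counts against 46.4 to 47.8 M in the other 3.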

How the results depend on the processing

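No edgeR fit on the libraries as a whole called a gene, with or without the replicate block, on the 8 libraries alone, under other scaling or filters, or with limma on TPM. DESeq2 called 2 genes and, with the block, 12, and leaving out libraries or batches gave 0 to 5. The number of genes at an unadjusted p under 0.05 was 173, and 721 with the replicate block, 86 with the 8 libraries alone, 462 with those and the block, 664 with DESeq2 and the block, 597 without a filter on low counts, 93 with at least 10 counts in every library, 338 and 340 with limma on log2(TPM + 1) and log2(TPM + 0.1), and 542 without FL replicates 1 and 4 (with the block). Leaving out 1 library or batch gave 136 to 1315. Of these, 1315 was without FL replicate 4 and 1186 without FL replicate 2, both with the block. The 95% interval lay within ±1 for 14835 genes, and no alternative moved that number beyond 1.5 times. The EPAS1 difference was −0.015 without FL replicates 1 and 4 and −0.126 to 0.366 with 1 library or batch left out. The median of the genes higher with cIDR was 0.15 with the block and ranged from 0.111 to 0.335 with 1 library or batch left out. Without the block it was 0.10 and ranged from −0.151 to 0.704. With the block it was 0.539 when the genes were chosen again without batch 2. With 1 library or batch left out, in fits with and without the block, list medians ranged as follows: adrenergic neuroblastoma state −0.018 to 0.047, amino acid and ER stress −0.17 to 0.23, glycolysis and lactate export −0.13 to 0.12, HIF subunits and sensors −0.028 to 0.13, HIF-2-associated targets −0.12 to 0.087, hypoxia-induced HIF targets −0.25 to 0.59, immediate early 0.036 to 0.20, interferon response and nucleic acid sensing −0.035 to 0.14, mesenchymal neuroblastoma state −0.12 to 0.15, mitochondrially encoded 0.055 to 0.69, other cell types −0.29 to 0.19, proliferation −0.081 to 0.11. On log2(TPM + 1) and log2(TPM + 0.1) the medians were −0.058 and −0.050 for glycolysis, −0.064 and −0.065 for the adrenergic list, and −0.050 and −0.050 for proliferation. Glycolysis was at 0.034 without FL replicates 1 and 4. Of the 42 named genes, 26 kept their sign under each alternative run for them (31, or 30 for YAP1) and 16 changed it under 1 or more. With 1 library or batch left out, those that changed sign ranged as follows: AURKB −0.19 to 0.026, BHLHE40 −0.045 to 0.42, EGLN3 −0.039 to 0.37, FOSL2 −0.11 to 0.27, HIF1A −0.069 to 0.19, IGF2 −0.048 to 1.08, LOXL2 −0.70 to 1.98, MYCN −0.070 to 0.072, PFKL −0.14 to 0.45, PFKP −0.79 to 0.75, SESN2 −0.71 to 1.11, TNIP1 −0.10 to 0.33, TRIB3 −0.71 to 1.22, ZNF395 −0.13 to 0.64. MYCN was at −0.058 and −0.059 on log2(TPM + 1) and log2(TPM + 0.1), FOSL2 at −0.012 and −0.010, and EGR3 at −0.036 and −0.030. Without FL replicates 1 and 4, MYCN was at −0.0030 and FOSL2 at −0.033. The causes were not tested. Intervals were narrower at higher expression: without the block the 95% interval reached a median of 0.40 to either side over all genes and 0.28 at a mean log2 CPM of at least 1.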

Other observations

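Pseudogenes were common among the lower genes. Of the 331 genes lower in NCTAD at an unadjusted p under 0.05 with the block, 119 (36.0%) were pseudogenes by GENCODE 29, against 13.4% of all tested genes and 4.87% of the 390 higher genes. Protein-coding genes made up 44.7% of the lower and 75.9% of the higher genes. Ribosomal protein pseudogenes, a set chosen after these values were seen, were 394 lower and 61 higher of 455 tested, with a median of −0.22 (blocked, log2). The share lower was 86.6%, against 47.4% of all genes, whose median was 0.0069. At an unadjusted p under 0.05 with the block 27 were lower (5.93%, against 1.69% of all genes) and 1 higher, and 52 were lower in 4 of 4 batches (11.4%, against 5.26%). Their median difference was −0.55, 0.13, −0.13 and −0.28 in batches 1 to 4, so that batch 2 went the other way. The blocked median was −0.059 without FL replicate 1 (308 lower, 147 higher), −0.084 without batch 1 and −0.0088 without FL replicates 1 and 4 (240 lower, 215 higher). The 84 ribosomal protein genes themselves were 75 lower and 9 higher, with a median of −0.049 and 0 at an unadjusted p under 0.05 with the block by edgeR. Reads of these pseudogenes and of their parent genes are near-identical, and how the counts were divided was not tested.

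ENSG00000287521, a gene without a symbol that had 0 counts in all 4 WT libraries, had 40, 39, 55 and 55 counts in FL and 22, 29, 95 and 54 counts in NCTAD. Whether any of its reads are shared with EPAS1 was not tested.

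The NCTAD value was higher outside batch 2 and lower within it for RGMA, a guidance molecule gene named here after its values were seen. RGMA read 7.16, 7.83, 6.19 and 7.51 CPM in FL and 15.7, 6.44, 12.8 and 13.0 CPM in NCTAD. Its log2 fold change was 0.74 ± 0.21 without and 0.70 ± 0.18 with the block (edgeR adjusted p 1 and 0.996), and it was among the 5 genes called without batch 2.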
